A study of Mus musculus with 18 samples.

Results

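The genes Cym, Asb4, Cryab, Ank2, Ghr and Tent4b have unrelated functions. They were picked from these arrays as higher in tumours without the transcription factor Stat3 than in tumours with it, and as genes of no immune function. They are 6 of the 19938 genes that a probe set of the array names. Each has 1 probe set with a single gene symbol, and all 6 passed the filter on low values. The choice rests on the difference between Stat3-deleted and control tumours, so that difference is described here array by array and without a test. The label held for all 12 tumours in Cym, Asb4, Cryab and Ank2. It did not hold in that form for Ghr and Tent4b, whose deleted and control tumours overlapped.

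The study deleted Stat3 from the gut epithelium of APCmin mice, a tumour-prone strain with a germline mutation in Apc, and asked whether their intestinal tumours still progress. There were 6 groups of 3 arrays, 1 array per sample. Stat3-/- tumours came from male mice (replicates 10 to 12) and female mice (16 to 18), and Stat3fl/fl tumours from male mice (7 to 9) and female mice (13 to 15). Stat3-/- intestinal epithelial cells (replicates 4 to 6) and Stat3fl/fl intestinal epithelial cells (1 to 3) made up the other groups. In Stat3-/- mice Villin-driven Cre removed the floxed alleles from epithelial cells of the gut, so stromal and immune cells of a tumour keep Stat3. The controls carried the same floxed alleles without the recombinase, and per the series text the tumour mice of both genotypes were APCmin/+. Sample descriptions name azoxymethane and dextran sulfate, agents that induce colorectal tumours, whereas the series text places APCmin tumours mostly in the small bowel. Which segment a tumour came from is therefore not known from the labels. No age, no Apc genotype of the epithelial cells and no batch are given. Nothing in the labels says that samples came from separate animals, so p-values measure the spread between samples, which may be partly technical.

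The gene products act at different levels of a cell. Cym encodes chymosin, a secreted aspartic protease best known as the milk-clotting enzyme of the stomach of suckling calves. Ghr encodes the growth hormone receptor, which signals through the kinase JAK2 and STAT5 and drives Igf1 transcription. Asb4 encodes an ankyrin-repeat protein with a SOCS box, a motif that links substrates to a cullin ubiquitin ligase, and its mouse gene is imprinted. Cryab encodes αB-crystallin, a small heat shock protein that holds unfolding proteins in solution. Ank2 encodes ankyrin-B, an adaptor that ties membrane transporters to the spectrin skeleton. Tent4b encodes a noncanonical poly(A) polymerase that adds tails to RNA for trimming or decay. STAT3 itself is a transcription factor activated by cytokines such as IL-6 and IL-22, and it binds a palindromic DNA motif.

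The sequences around the annotated starts were searched for short promoter motifs. RefSeq promoter windows (GRCm38.p6, 250 bases before to 50 after a start) were at hand for 5 of the 6 genes, 11 windows in all, since Asb4, Ank2, Ghr and Tent4b have several. The 250 bases before a start are printed 5′ to 3′ for Cym and Asb4, which had the largest differences between tumours, and for Ghr, whose difference had opposite signs in female tumours and epithelial cells. Capitals mark TATAAA, the TATA box, in Cym, and CCAAT in Asb4 and Ghr.
Cym, chr3:107221733-107221982, minus strand: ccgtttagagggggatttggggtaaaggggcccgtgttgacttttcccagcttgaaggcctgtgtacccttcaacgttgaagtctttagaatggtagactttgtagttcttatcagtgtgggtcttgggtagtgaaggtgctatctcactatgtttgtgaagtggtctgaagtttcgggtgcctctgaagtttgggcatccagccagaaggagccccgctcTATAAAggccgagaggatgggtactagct
Asb4, chr6:5383136-5383385, plus strand: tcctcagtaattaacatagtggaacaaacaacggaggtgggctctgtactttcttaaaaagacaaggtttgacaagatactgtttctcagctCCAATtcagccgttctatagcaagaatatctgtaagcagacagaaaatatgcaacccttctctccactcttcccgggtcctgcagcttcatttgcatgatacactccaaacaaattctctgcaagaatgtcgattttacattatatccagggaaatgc
Ghr, chr15:3583353-3583602, minus strand: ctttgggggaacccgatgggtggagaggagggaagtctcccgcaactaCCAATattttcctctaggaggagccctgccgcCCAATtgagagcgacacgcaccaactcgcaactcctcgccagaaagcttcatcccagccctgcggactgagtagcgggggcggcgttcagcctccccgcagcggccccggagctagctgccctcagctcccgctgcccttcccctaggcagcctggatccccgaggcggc

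The Cym window held TATAAA starting 29 bases before the start. The STAT motif TTCNNNGAA was searched on both strands, and 0 of the 11 windows held it, against 8.3% of all 32851 windows of 300 bases. TATAAA stood in 13.6% and CCAAT in 37.4% of all windows, on either strand. TATAAA also stood in a window each of Ank2 and Ghr, and CCAAT in windows of Asb4, Ank2 and Ghr. The motifs do not overlap each other in the printed sequences. The genes differed in base composition. The Tent4b windows held 44 and 48 CG dinucleotides, the printed Ghr window held 23, the Cym window 7 and the printed Asb4 window 6, with a median of 7 over all windows. These are descriptions of the letters in these windows only, and they say nothing of whether a factor binds.

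Stat3 was low in each deleted sample. Its deposited log2 values were 7.73 to 7.95 in Stat3-deleted epithelial cells against 9.74 to 9.91 in floxed ones, and 7.74 to 8.46 in the 6 deleted tumours against 10.03 to 10.35 in the 6 floxed tumours. Whether the probe set lies in the deleted exons was not checked. All 18 arrays had medians between 5.88 and 6.07 log2, and their number limits the precision. Epithelial markers were high throughout, with array means of 8 measured genes (Epcam, Cdh1 and keratins among them) between 10.84 and 11.82 in tumours and between 11.29 and 11.65 in epithelial cells. Fibroblast markers had array means of 8.91 to 10.38 in tumours and 6.54 to 7.13 in epithelial cells. In such mixed samples a change in the share of a cell type and a change in RNA per cell cannot be told apart.

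**Figure D1:**
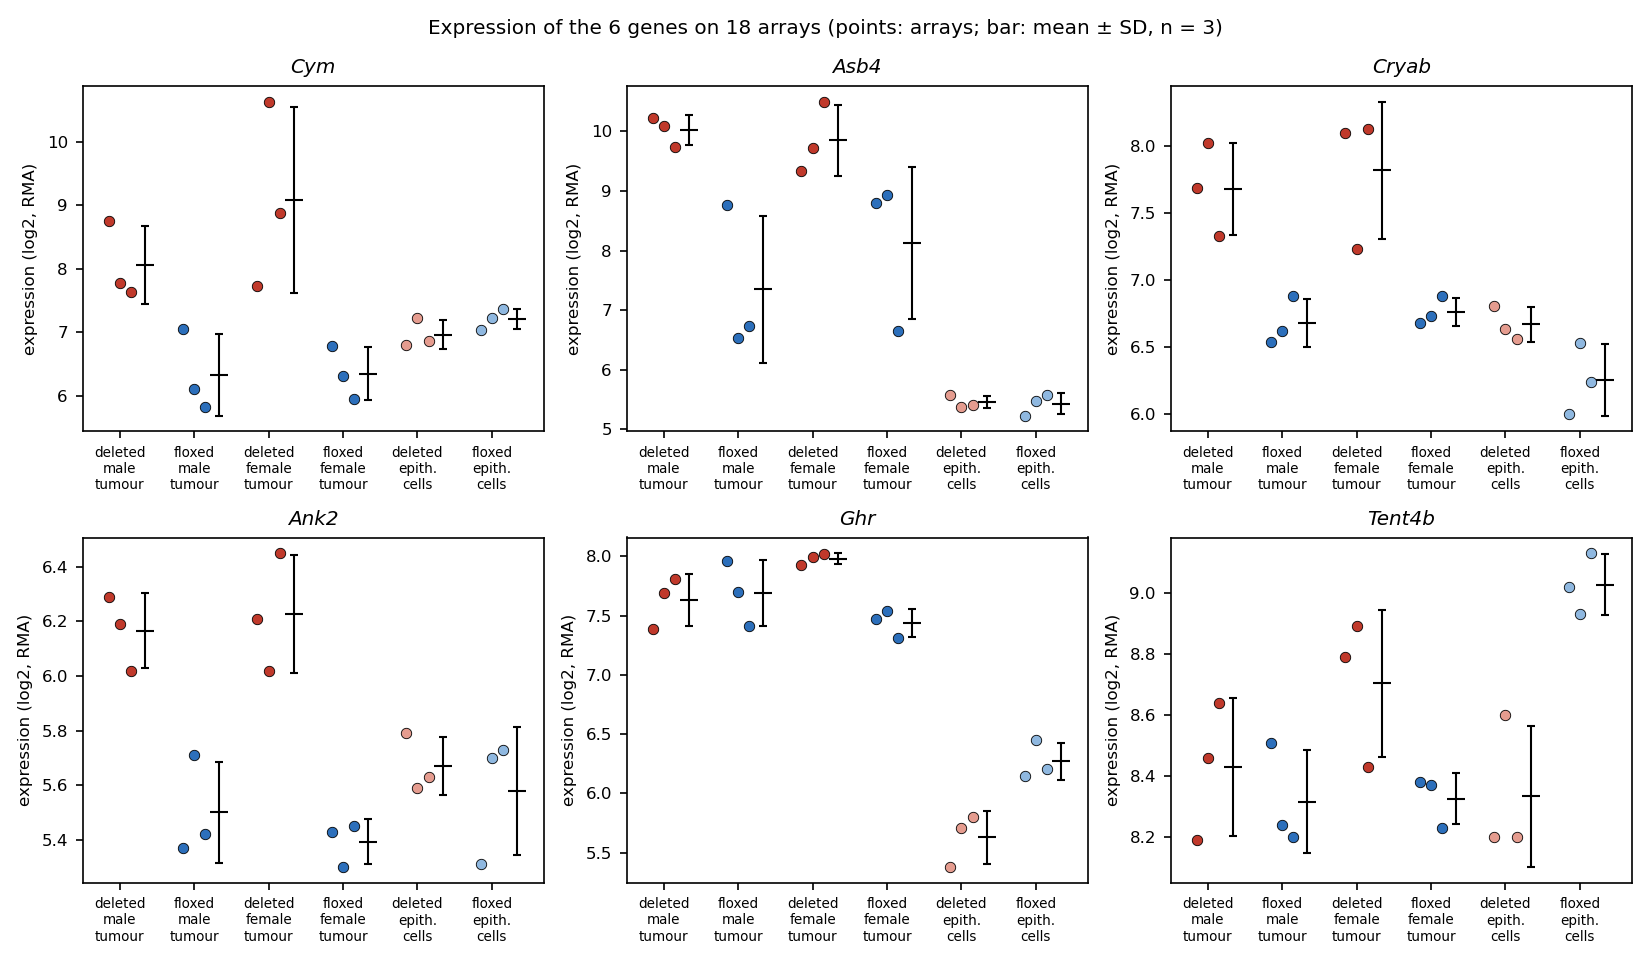
Deposited log2 expression (y axis, RMA) of the 6 genes in the 6 groups (x axis); points are arrays, and bars show the mean ± SD (n = 3). Deleted tumours lay above floxed tumours without overlap in Cym, Asb4, Cryab and Ank2, whereas Ghr and Tent4b overlapped and were lower in deleted than in floxed epithelial cells.

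Cym had the most variable level among deleted tumours. Its log2 values were 8.76, 7.78 and 7.63 in Stat3-deleted male tumours against 7.05, 6.11 and 5.83 in floxed male tumours. In female tumours they were 7.73, 10.63 and 8.88 in the deleted group against 6.79, 6.31 and 5.95 in the floxed group. Every deleted tumour was above every floxed tumour, and the deleted female replicate 17 stood highest. The difference, averaged over the sexes, was 2.23 on the log2 scale, a 4.68-fold difference, with 1.72 in male and 2.73 in female tumours. Without replicate 17, the difference was 1.84.

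Asb4 was higher in all deleted tumours and split the floxed tumours. It read 10.23, 10.10 and 9.74 in deleted male tumours against 8.76, 6.54 and 6.74 in floxed male tumours. In female tumours it read 9.33, 9.72 and 10.50 in the deleted group against 8.80, 8.93 and 6.65 in the floxed group. The deleted tumours spanned 9.33 to 10.50, while the floxed tumours lay at 2 levels, with replicates 8, 9 and 15 below 7 and replicates 7, 13 and 14 between 8.76 and 8.93. The mean difference was 2.20 on the log2 scale (4.59-fold), with 2.68 in male and 1.72 in female tumours. The female value rested on floxed replicate 15, and without it was 0.98.

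Several genes that mark gut segments also differed among the tumours, in part along with Asb4. Hoxd13, a transcription factor of the posterior gut, read 8.25 and 9.10 in floxed replicates 9 and 15, against at most 5.59 in the other tumours. Gata4, which specifies the proximal small intestine, read 6.92 and 6.84 in the same pair and at least 8.86 in the others. Onecut2, listed with these segment genes, did not set the pair apart. It read 8.19 and 8.24 there, within the 7.77 to 8.64 of the other tumours. Car1, a carbonic anhydrase of the colon, read 10.90 and 10.24 in this pair, but also 8.40 in deleted replicate 16, where Asb4 stood at 9.33, against at most 5.05 in the other tumours. Fabp6, the ileal bile acid binding protein, was highest in floxed replicate 8, at 11.10, and at most 4.62 in the 6 deleted tumours. The floxed replicates 7 and 14, with Asb4 at 8.76 and 8.93, also had Fabp6 at 7.92 and 8.53, so Fabp6 and low Asb4 did not coincide in every tumour. Slc10a2, the ileal bile acid transporter, read 3.91 to 4.62 in deleted and 5.28 to 7.72 in floxed tumours. Without replicates 9 and 15 the Asb4 difference was 1.68 and the Cym difference 2.0. The part of gut segment in what remained was not tested.

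**Figure D2:**
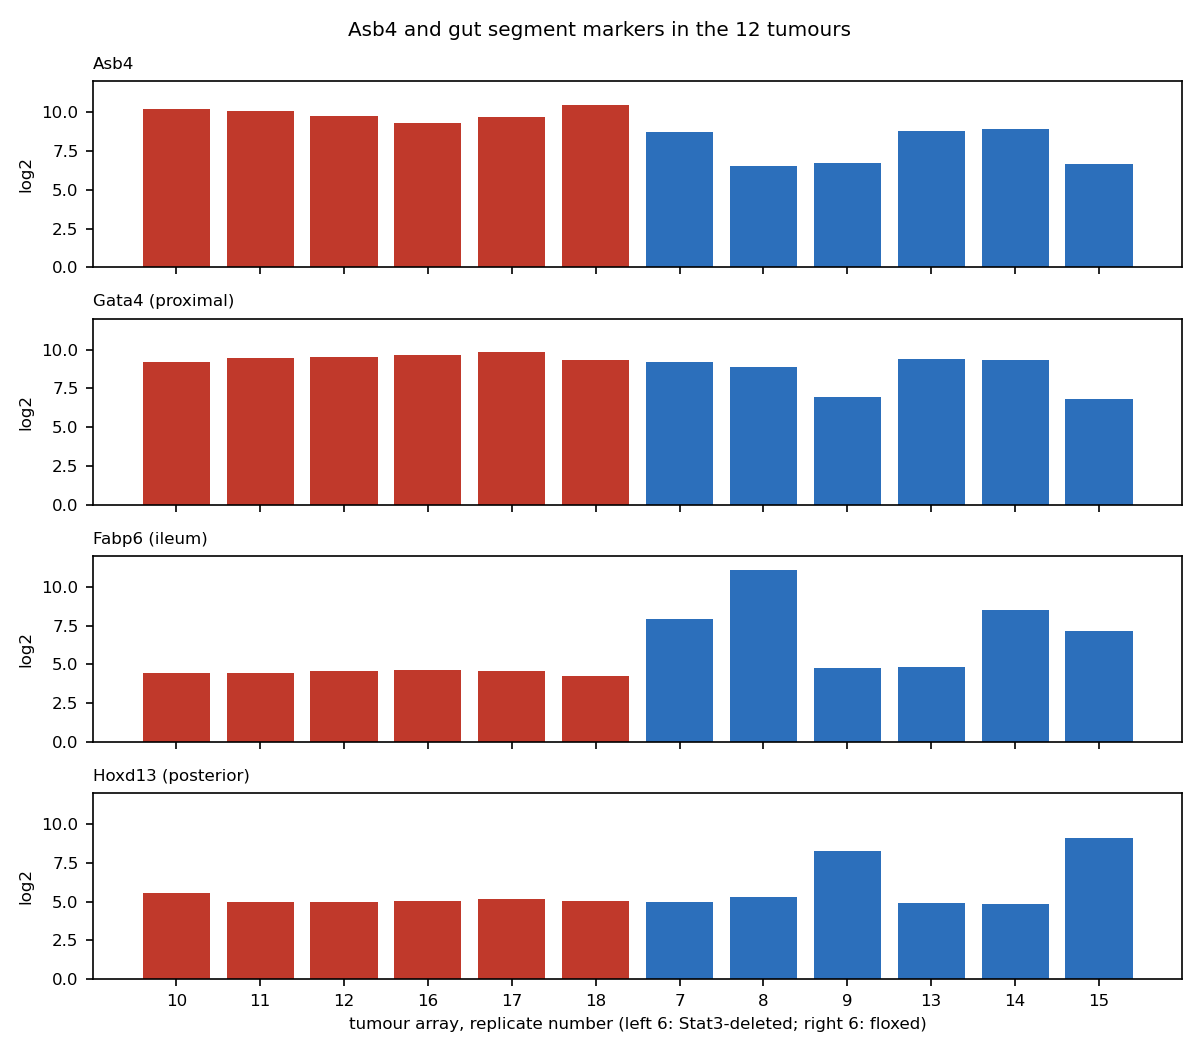
Deposited log2 values (y axes) of Asb4 and of the segment markers Gata4, Fabp6 and Hoxd13 in the 12 tumours (x axis, replicate numbers; red, Stat3-deleted; blue, floxed). Asb4 was below 7 in floxed replicates 8, 9 and 15; replicate 8 had the highest Fabp6 (11.10), and 9 and 15 had Hoxd13 at 8.25 and 9.10.

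Cryab was uniform in the floxed tumours and higher in the deleted ones. Deleted male tumours had 7.69, 8.02 and 7.33 log2 against 6.54, 6.62 and 6.88 in floxed male tumours. Deleted female tumours had 8.10, 7.23 and 8.13 against 6.68, 6.73 and 6.88 in floxed female tumours. The 6 floxed arrays spanned only 6.54 to 6.88, and the lowest deleted array, at 7.23, lay above them. The mean difference was 1.03 (2.04-fold), with 1.0 in male and 1.05 in female tumours.

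Ank2 showed the same order at a low signal. Deleted male tumours had 6.29, 6.19 and 6.02 log2 against 5.37, 5.71 and 5.42 in floxed male tumours. Deleted female tumours had 6.21, 6.02 and 6.45 against 5.43, 5.30 and 5.45 in floxed female tumours. The mean difference was 0.75 (1.68-fold), with 0.67 in male and 0.83 in female tumours, and every floxed value, at most 5.71, lay below the lowest array median of the series, 5.88. Enteric neurons, glia and smooth muscle are known to express Ank2 or Cryab. The array means of 8 measured neuron and glia markers were 5.28 to 5.56 in deleted and 5.25 to 5.71 in floxed tumours, and those of 10 smooth muscle markers were 7.39 to 8.83 in deleted and 7.56 to 8.39 in floxed tumours. Both marker lists thus overlapped between the genotypes. The neuron and glia means were no higher in tumours than in epithelial cells, at 5.54 to 5.78. They also lay below 5.88, so this list could hardly show a change in these cells. In tumours 0 of the 18 genes of both lists passed in limma, where 0.71% of all genes did. An unadjusted p under 0.05 was found for 2 of them, where 12% of all genes had one. The part of these cells in the Ank2 and Cryab differences was not tested.

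Ghr separated the genotypes in female tumours and overlapped in male tumours, and the difference between the sexes was not tested. Deleted female tumours had 7.93, 7.99 and 8.02 log2 against 7.47, 7.54 and 7.31 in floxed female tumours, a difference of 0.54 with no overlap. Deleted male tumours had 7.39, 7.69 and 7.81 against 7.96, 7.70 and 7.41 in floxed male tumours, and the means differed by -0.06, with -0.20 to 0.07 when single replicates were left out. Over both sexes the difference was 0.24 (1.18-fold), and 0.14 without replicates 9 and 15.

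Tent4b had the same pattern of overlap as Ghr. Deleted female tumours had 8.79, 8.89 and 8.43 log2 against 8.38, 8.37 and 8.23 in floxed female tumours, a difference of 0.37 with no overlap. Deleted male tumours had 8.19, 8.46 and 8.64 against 8.51, 8.24 and 8.20 in floxed male tumours, a difference of 0.12, with overlap, and 0.01 to 0.24 when single replicates were left out. The difference over both sexes was 0.25 (1.19-fold).

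These counts can be set beside those of all 17316 tested genes, with nothing read from the comparison, since the genes were picked on it. Arrays did not overlap, with the deleted group higher, in 4 of the 6 genes over all 12 tumours, where 0.219% of all genes did so. The same held for 4 of the 6 in male tumours (2.06% of all genes) and for 6 of the 6 in female tumours (5.2% of all genes).

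The epithelial cells were not used to choose the genes, so they test whether the genotype difference is also seen outside tumours. None of the 6 genes passed there (limma, 0 of 6 with an adjusted p under 0.05), and the background was equally sparse, with 0.0231% of all genes passing. At an unadjusted p under 0.05 there were 2 of the 6 genes, Ghr and Tent4b, both lower in the deleted cells, and 1178 genes (6.8%) in all. With array weights, 2 of the 6 passed, again Ghr (-0.57, adjusted p 0.0134 in limma) and Tent4b (-0.73, 0.00399), and so did 1134 genes in all, under weights that ran from 0.30 to 4.87 among the 3 deleted arrays.

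Ghr had 5.38, 5.71 and 5.80 log2 in Stat3-deleted epithelial cells against 6.15, 6.45 and 6.21 in floxed cells. All deleted cells lay below all floxed cells, and the difference was -0.64 ± 0.16 (SE; limma adjusted p 0.558). Tent4b had 8.20, 8.60 and 8.20 in deleted against 9.02, 8.93 and 9.13 in floxed cells, again without overlap, and differed by -0.69 ± 0.17 (limma adjusted p 0.475). Arrays failed to overlap in this direction in 7.81% of all genes. The sign in epithelial cells was thus opposite to that in female tumours for both genes. Of the 14 marker lists, those of leukocytes, enterocytes and goblet cells also separated the genotypes in the same arrays, and the others overlapped. The means of 9 leukocyte markers were 6.73 to 7.35 in deleted against 6.36 to 6.62 in floxed cells, and those of 10 enterocyte markers were 12.43 to 12.74 in deleted against 12.75 to 12.92 in floxed cells. The means of 6 goblet markers were 11.33 to 11.37 in deleted against 11.38 to 11.42 in floxed cells. The part of these cell types in the result was not tested. The deleted replicate 4 was at the extreme of each of these lists, and without it the differences were -0.51 for Ghr and -0.62 for Tent4b.

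Cryab read 6.81, 6.64 and 6.56 in deleted against 6.0, 6.53 and 6.24 in floxed epithelial cells. The deleted cells were higher without overlap, as in 6.3% of all genes, and the difference of 0.42 ± 0.23 did not pass (limma adjusted p 0.722). Its 95% interval ran from -0.06 to 0.90. The tumour difference of 1.03 lies outside that interval, but Cryab was chosen on it, and the difference between the tissues was not tested.

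Cym and Asb4, which differed most between tumours, had differences close to 0 in epithelial cells, with wide intervals. Cym read 6.80, 7.22 and 6.87 in deleted against 7.04, 7.23 and 7.36 in floxed cells (difference -0.25, 95% interval -1.35 to 0.85, limma adjusted p 0.936). Asb4 read 5.57, 5.38 and 5.41 in deleted against 5.23, 5.48 and 5.58 in floxed cells (difference 0.03, 95% interval -1.14 to 1.19, limma adjusted p 0.995). The model shares 1 estimate of spread per gene over all groups, and the tumours were far more variable than the epithelial cells, where the SD of Asb4 was 0.10 in deleted and 0.18 in floxed cells. Ank2 differed by 0.09 (95% interval -0.22 to 0.41, limma adjusted p 0.905), with 5.79, 5.59 and 5.63 in deleted and 5.31, 5.70 and 5.73 in floxed cells. Both Asb4 and Ank2 lay below the lowest array median of the series, 5.88, in all 6 epithelial samples. At so low a signal a difference is hard to see.

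**Figure D3:**
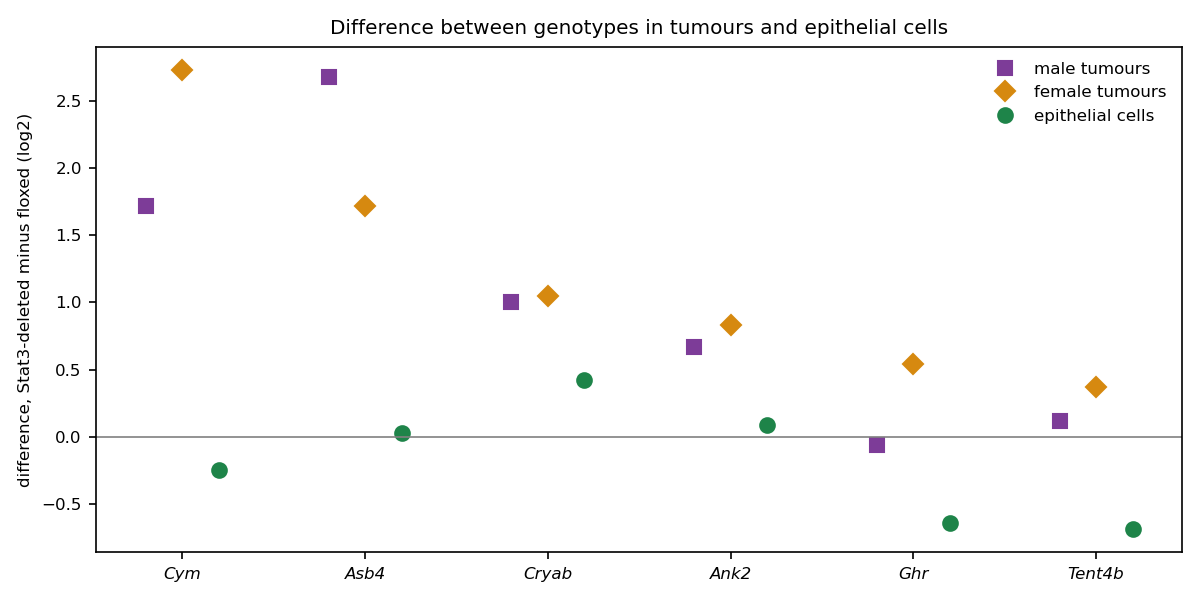
Difference between Stat3-deleted and floxed group means (y axis, log2) for each gene (x axis) in male tumours (squares), female tumours (diamonds) and epithelial cells (circles). Ghr and Tent4b lie at -0.64 and -0.69 in epithelial cells and at 0.54 and 0.37 in female tumours, whereas Cym, Asb4, Cryab and Ank2 lie above 0 in tumours of both sexes.

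Tumours were compared with epithelial cells over both genotypes, with equal weight for each genotype. A genotype difference found in tumours alone, on which the genes were picked, does not cancel in it: the deleted tumours enter the tumour mean, so each value is given within each genotype too, as a description. Of the 6 genes, 3 rose (Asb4, Ghr and Cryab) and 1 fell (Tent4b), where 35.6% of all genes rose and 42.3% fell, so that 78% of all genes passed. A call in this comparison therefore says little by itself, and the sizes over both genotypes also draw on the tumours used for the choice. The tumours differ from the epithelial cells in makeup, with the fibroblast marker means given above, and the part of makeup was not tested.

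Asb4 rose by 3.40 ± 0.34 (SE), a 10.53-fold difference, with 6.54 to 10.50 log2 in the 12 tumours against 5.23 to 5.58 in the 6 epithelial samples (limma adjusted p 3.63e-07). It was higher in every tumour than in every epithelial sample, the 3 floxed tumours with the lowest values included. The difference was 4.48 within the deleted genotype (9.94 against 5.45) and 2.31 within the floxed genotype (7.74 against 5.43). Ghr rose by 1.73 ± 0.10 (3.33-fold), with 7.31 to 8.02 in tumours against 5.38 to 6.45 in epithelial cells (limma adjusted p 1.35e-09). The difference was 2.17 within the deleted and 1.3 within the floxed genotype. Its order of group means put all 4 tumour groups above both epithelial groups, and neighbouring tumour groups overlapped.

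Cryab rose by 0.77 ± 0.14 (limma adjusted p 0.000106), with 6.54 to 8.13 in tumours against 6.0 to 6.81 in epithelial cells, so these ranges overlapped. The difference was 1.08 within the deleted and 0.47 within the floxed genotype. Floxed tumours averaged 6.72 ± 0.14 (SD, n = 6), close to the deleted epithelial cells at 6.67 ± 0.13 (n = 3). Cym did not pass (0.37 ± 0.32, limma adjusted p 0.297). Its level in epithelial cells, 6.80 to 7.36, lay between the deleted tumours (7.63 to 10.63) and the floxed tumours (5.83 to 7.05). It overlapped the highest floxed tumour and no deleted tumour, and the difference was 1.61 within the deleted and -0.87 within the floxed genotype. Ank2 did not pass either (0.20 ± 0.09, limma adjusted p 0.0592), with 0.53 within the deleted and -0.13 within the floxed genotype. It did pass with quantile normalisation (0.36, limma adjusted p 0.000638), with array weights (0.16, 0.0494) and without any 1 of replicates 3, 4, 7, 12 or 17 (0.0359 to 0.049). The deleted tumours (6.02 to 6.45) lay above all epithelial samples (5.31 to 5.79), and the floxed tumours (5.30 to 5.71) overlapped them.

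Tent4b fell by 0.24 ± 0.10 on the log2 scale over both genotypes (limma adjusted p 0.0439), but the genotypes had opposite signs. The difference was 0.23 within the deleted genotype (8.57 against 8.34) and -0.70 within the floxed genotype (8.32 against 9.03). Its highest group was the floxed epithelial cells at 9.03 ± 0.10 (SD, n = 3), and the other 5 group means lay between 8.32 and 8.70. The call was lost with array weights (-0.10, limma adjusted p 0.215), without replicates 9 and 15 (-0.21, 0.0963) and without any 1 of replicates 1, 3, 5, 8, 9, 10, 11, 13, 14, 15 or 18, with adjusted p-values up to 0.145 in limma.

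Male and female tumours were compared over both genotypes, with equal weight for each genotype, so a genotype difference shared by the sexes cancels. None of the 6 genes passed in limma, where 0.0231% of all genes did, and 0 of the 6 but 6.13% of all genes had an unadjusted p under 0.05. The largest difference was that of Cym, -0.52 ± 0.37 (95% interval -1.30 to 0.26, limma adjusted p 0.753), with 5.83 to 8.76 in male against 5.95 to 10.63 in female tumours. The other differences lay between -0.30 for Asb4 and 0.02 for Ank2.

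**Figure D4:**
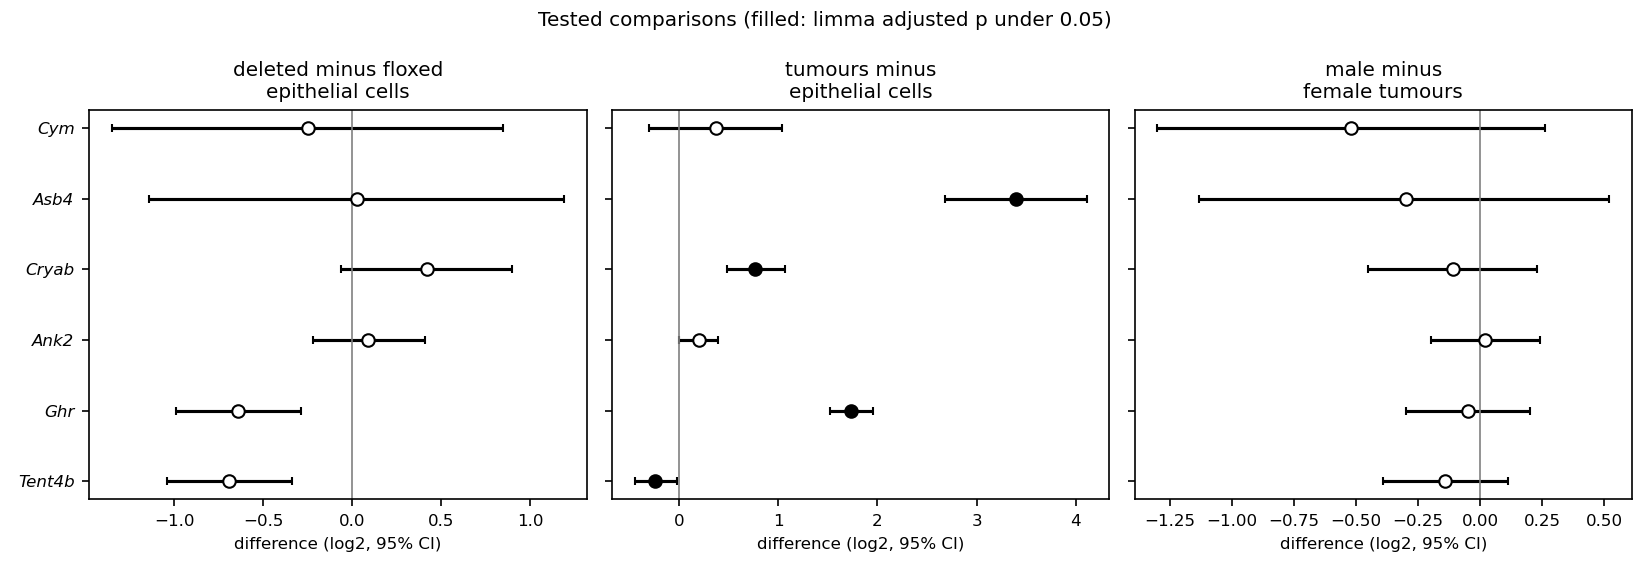
Differences on the log2 scale (x axes) with 95% intervals for the 6 genes (y axis) in the 3 tested comparisons; filled points passed in limma at an adjusted p under 0.05. Asb4 (3.40), Ghr (1.73) and Cryab (0.77) lie above 0 and Tent4b (-0.24) below 0 in tumours against epithelial cells, and no gene passed in the other 2 comparisons. The comparison of tumours with epithelial cells includes the tumours on which the genes were picked.

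The genes that work with each of the 6 were listed and tested in the same fits. In tumours, where the test across all genes called 0.71% of all genes (0.289% higher and 0.422% lower in the deleted genotype), 1 of the 104 genes in 7 lists passed, and 14 had an unadjusted p under 0.05 (12% of all genes). The gene that passed was Bace1, the β-secretase, an aspartic protease like chymosin, which had 7.01 to 7.55 in deleted against 7.47 to 8.21 in floxed tumours and fell by 0.62 ± 0.13 (limma adjusted p 0.0277). Its call was lost without replicates 9 and 15 (-0.51, adjusted p 0.0927 in limma) and without any 1 of replicates 11, 12, 14, 15, 16 or 17 (up to 0.0926). In epithelial cells 0 of the 104 genes passed in limma (0.0231% of all genes), and 9 had an unadjusted p under 0.05 (6.8% of all genes). Between the sexes 0 of the 104 passed (0.0231% of all genes), and 7 had an unadjusted p under 0.05 (6.13% of all genes). In tumours against epithelial cells 83 of the 104 passed in limma, where 78% of all genes did, so a count per list says little by itself.

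Of 7 measured aspartic proteases besides Cym, 5 rose and 1 fell in tumours against epithelial cells, where 35.6% of all genes rose and 42.3% fell. The 7 had a median of 1.24, where all genes had a median of -0.07. Ctse, the intracellular protease cathepsin E of gut and stomach epithelium, rose by 2.99 ± 0.35 (limma adjusted p 1.96e-06), with 9.66 to 11.45 in tumours against 5.89 to 8.44 in epithelial cells. Pgc, the gastric zymogen progastricsin, rose by 1.40 ± 0.44 (limma adjusted p 0.00781), and Pga5, a pepsinogen, fell by 0.75. Ctse stood at means of 10.64 in deleted and 10.63 in floxed tumours, and Pgc at 6.73 in deleted and 6.98 in floxed tumours, and neither difference passed in limma (adjusted p 0.996 and 0.924). The 11 gastric markers had array means of 6.42 to 7.70 in deleted and 6.10 to 7.87 in floxed tumours.

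Of 21 genes of the growth hormone and IGF axis besides Ghr, 11 rose and 4 fell in tumours against epithelial cells (median 0.45). Among all genes 35.6% rose and 42.3% fell. Igf1, the hepatic and stromal growth factor induced through the receptor, rose by 2.38 ± 0.22 (limma adjusted p 1.68e-07), Igf1r, its receptor, by 1.22, and the IGF binding protein gene Igfbp5 by 4.86. Jak2, the kinase bound to the growth hormone receptor, fell by 0.81, and Irs2, an insulin receptor substrate, fell by 1.36. Between tumour genotypes 0 of the 21 passed, with Igf1 at means of 7.48 in deleted and 7.95 in floxed tumours (-0.47, limma adjusted p 0.505).

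Of 15 heat shock and chaperone genes besides Cryab, 8 rose and 5 fell in tumours against epithelial cells (median 0.30). Among all genes 35.6% rose and 42.3% fell. The small heat shock genes Hspb1 (1.55) and Hspb8 (1.03) rose, and so did the heat shock factor gene Hsf2 (1.70). Hspb2, which lies beside Cryab in the genome, fell by 0.69. Between tumour genotypes 0 of the 15 passed. The inducible chaperone gene Hspa1a differed by 0.72 (limma adjusted p 0.205), Hspb2 by 0.30 (0.412) and Hspb8 by -0.52 (0.267), so values of both signs stood beside the 1.03 of Cryab.

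Of 18 tested ASB and cullin ligase genes besides Asb4, 4 rose and 10 fell in tumours (median -0.27), where 35.6% of all genes rose and 42.3% fell. Cul5, the cullin that SOCS-box proteins recruit, rose by 0.96 and Asb3 by 0.75, and Asb18 fell by 0.69. Of 11 tested genes around Asb4 on chromosome 6, 5 rose and 4 fell, beside the same shares of all genes. Casd1, a sialic acid acetyltransferase, rose by 2.22, Ppp1r9a, an actin-binding protein, by 0.82, and the imprinted retrotransposon-derived Peg10 fell by 0.39, a call lost after quantile normalisation (-0.17, limma adjusted p 0.157). Between tumour genotypes 0 of either list passed. The largest differences around Asb4 were in Pdk4, a kinase that restrains pyruvate oxidation, at 0.94 (limma adjusted p 0.29), and Pon3 at 0.71 (0.346). The other tested neighbours lay between -0.14 and 0.27, and the median of the 11 was -0.02.

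Of 15 ankyrin and spectrin partners of Ank2, 3 rose and 8 fell in tumours (median -0.37), where 35.6% of all genes rose and 42.3% fell. Ank3, the ankyrin-G gene of epithelia, fell by 0.92, the erythroid ankyrin gene Ank1 fell by 0.54, and Add3, an adducin, rose by 0.52, a call that was lost without replicate 3 or replicate 4 (adjusted p up to 0.0775 in limma) and after quantile normalisation (0.0932). Of 17 RNA tailing and trimming genes besides Tent4b, 13 rose and 2 fell (median 0.65), beside the same shares of all genes. Tent4b itself stood at 0.23 within the deleted and -0.70 within the floxed genotype. Tent4a, its closest relative, rose by 0.84, Parn, a deadenylase, by 1.36 and Tent5c by 2.04, while Tent5b fell by 0.59. Between tumour genotypes 0 of both lists passed. Several of the falls named for these lists were at a weak signal. The tumour means were 6.06 for Hspb2, 5.67 for Ank1, 5.39 for Asb18, 5.18 for Peg10 and 4.73 for Pga5. Array medians of the series were 5.88 to 6.07. The 25th percentile of an array was 4.295 to 4.407 in tumours and 4.51 to 4.575 in epithelial cells, and the part of this shift in the falls of weak genes was not tested.

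Within the groups, the 6 genes did not vary together as a block. Over the 12 tumour arrays, after each group mean was subtracted, Pearson's r among the 15 pairs ran from -0.80 (Ank2 with Tent4b) to 0.66 (Ghr with Tent4b). Cryab and Ank2 had r of 0.58 and Cym and Cryab -0.68. These correlations share the same arrays and have few degrees of freedom, so they are descriptions. The 3 genes most like each member in this measure, out of 17315, were Fam186a, St8sia3 and Nr2c2ap for Cym (r 0.88 to 0.93), Prom1, Prdx4 and Mrpl16 for Asb4 (0.94 to 0.96), and Tmem9, Olfr1383 and Nptx1 for Cryab (0.95 to 0.96). For Ank2 they were Rpl24, Fam222a and Wnt5b (0.94 to 0.97), for Ghr Kat6b, Pigl and Abca5 (0.95 to 0.97), and for Tent4b Dlst, Ptdss1 and Nr3c2 (each 0.98). No gene appeared in more than 1 of these groups of 3. The highest r among so many genes on so few arrays can be large without any link, and none was tested.

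Each gene was also set against the mean of each of the 14 marker lists over the 12 tumours, in the same way. The 3 correlations of greatest size among the 84 were those of Asb4 with the mixed list of gut segment genes (r -0.89), Cryab with tuft cell markers (r -0.89) and Ghr with epithelial markers (r 0.81). They were picked out for their size and are given without a test.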

How the data were processed

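Total RNA of 18 mouse samples was biotin-labelled with a whole-transcript kit and hybridised to Affymetrix arrays, 1 per sample, per the labels' protocols. The deposited values are log2 expression values per probe set, made by the authors with RMA, per the submitters' processing notes; its version is not given in the sources used here. They ranged from 1.33 to 14.59 over 35556 probe sets. The platform table gave 21789 probe sets 1 gene symbol and 1621 several, and did not list 12146, and 21698 matched a RefSeq gene by identifier. The brightest probe set represented each of 19938 genes. Genes above the array's 25th percentile in at least 3 arrays, 17316 in all, were tested.

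A mean for each of 6 groups was fitted to all arrays in limma 3.58.1 (R 4.3.3) with an intensity trend. Tests were two-sided, with Benjamini-Hochberg adjustment over all tested genes and a threshold of 0.05. The fit was tested on simulated data. The 6 genes, the pathway and marker lists and the alternatives were chosen with earlier results of these data known. Differences are deleted minus floxed, tumour minus epithelial, or male minus female. The rule for naming genes took the 6 genes, Stat3, the 3 genes most like each of them within tumour groups, and list members that passed or differed most. Promoter sequences came from RefSeq. Alternatives were quantile normalisation, other filters, no trend, array weights, the mean of a gene's probe sets, only the compared groups, and leaving out replicates.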

Additional observations from a re-analysis of the deposited data

Results flagged for a closer look

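Ghr and Tent4b had opposite signs in female tumours and epithelial cells. In both genes every Stat3-deleted female tumour was above every floxed female tumour, as in 5.2% of all genes. Every deleted epithelial sample was below every floxed one, as in 7.81% of all genes. Neither epithelial difference passed (limma adjusted p 0.558 for Ghr and 0.475 for Tent4b). In male tumours the genotypes overlapped, with differences of -0.06 for Ghr and 0.12 for Tent4b. The difference in female tumours minus that in epithelial cells was 1.18 on the log2 scale for Ghr and 1.07 for Tent4b. This difference was not tested, because the genes were chosen on the tumours. Groups of 3 arrays are too small to look for outlying samples.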

How the results depend on the processing

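Of 171 counts recomputed under the alternatives, 163 stayed within 1.5 times the reported value. Some of these could hardly change, since leaving out arrays cannot make separate groups overlap. The 8 that moved were all counts in epithelial cells. With array weights 1134 genes passed in epithelial cells (564 higher, 570 lower) in place of 4, and 2 of the 6 genes in place of 0. Leaving out 1 replicate gave 2 to 4 genes there, with 2 without any 1 of replicates 1 to 6. Small differences that had not passed changed sign. For Asb4 in epithelial cells the value was -0.04 with quantile normalisation, -0.0004 with array weights and -0.07 to 0.10 without single replicates, and for Ank2 there it was -0.04 to 0.17 without single replicates. Between male and female tumours Ank2 was -0.03 with array weights and -0.03 to 0.08 without single replicates, where it was -0.003 without replicate 14 and -0.01 without replicate 10. Ghr was 0.04 with quantile normalisation, 0.01 with array weights and -0.12 to 0.02 without single replicates, with 0.01 without replicate 10. The cause was not tested. Leaving out single replicates within a sex was added after the data were seen. In tumours against epithelial cells Ank2 passed with quantile normalisation (0.36) and array weights (0.16), and Tent4b did not pass with array weights (-0.10) or without replicates 9 and 15 (-0.21). Hspa1a passed between tumour genotypes without replicate 18 (0.91), and Hspb2 (0.41) and Pdk4 (1.18) did with array weights. Quantile normalisation moved the median of all genes from -0.07 to -0.12 in tumours against epithelial cells. No paired analysis was possible because the replicate numbers are unique over the series.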
